A study of Mus musculus with 18 samples.

Results

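Circular RNAs of 39 genes that encode regulators of pre-mRNA splicing were described in whole mouse brain. The genes were chosen by name, and every circle whose host gene in the deposited tables was one of the 39 names was kept. The 39 genes were among 15530 host genes in the Illumina tables. They held 1141 of 208914 Illumina circles and 874 of 166212 circles in the Oxford Nanopore (ONT) tables. All 39 had at least 1 circle, and all 39 passed the filter on low counts in the Illumina data.

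Brains came from adult male C57BL/6J mice aged 3 to 4 months, with 3 biological replicates per genotype. The Adar1-2KO mice were homozygous for the catalytically inactive Adar1 allele E861A, lacked Ifih1 and Adar2 and carried the Gria2 R/R genotype. The Adar2KO mice lacked Adar2 and also carried Gria2 R/R, so that both mutant groups shared the loss of Adar2 and the altered Gria2, and only Adar1-2KO lacked Ifih1. The third group was wild type (WT). Circular RNA was enriched with RNase R, copied from random hexamers by rolling amplification and sequenced on both platforms. The comparisons therefore set whole genotypes against each other, and the part of each single allele cannot be told apart.

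A circular RNA forms when the splicing machinery joins the end of an exon back to the start of the same or an upstream exon. The proteins of these genes bind short motifs near exons and set which exons are used, and several of them, such as Quaking, Muscleblind and hnRNP proteins, are themselves known to promote or restrain back-splicing. ADAR1 and ADAR2 deaminate adenosine to inosine in double-stranded RNA, and paired intron repeats of the kind they edit are known to bring back-splice sites together. Many splicing regulators also control their own transcripts, and their genes are known as hosts of circles in brain.

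A back-splice junction is the only stretch of a circle that its linear transcript lacks. The junctions of the main circles (the circle with the most Illumina reads of its host) are therefore shown for 12 of the hosts described below, chosen among those whose junction was coding on both sides. The Hnrnpu junction was not coding on both sides and is not shown. In each line the lower-case letters are the last 20 bases of the exon that ends the circle, and the capitals are the first 20 bases of the exon that starts it. Sequences were taken from GENCODE M21 transcripts whose exon and intron lengths were identical to those of the deposited circle, except for Celf2, where only the end exons matched, and positions are those of the deposited files on GRCm39.
Rbfox1, chr16:7042175-7042414, plus strand: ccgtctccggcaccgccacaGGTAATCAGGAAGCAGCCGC
Rbfox2, chr15:76997805-77017141, minus strand: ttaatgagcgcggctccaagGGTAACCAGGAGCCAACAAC
Khdrbs3, chr15:68885207-68921310, plus strand: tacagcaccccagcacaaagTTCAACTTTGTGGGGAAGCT
Khdrbs2, chr1:32372547-32511846, plus strand: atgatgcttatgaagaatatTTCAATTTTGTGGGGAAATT
Ddx17, chr15:79421198-79421746, minus strand: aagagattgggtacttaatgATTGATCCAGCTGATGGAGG
Ddx5, chr11:106674927-106675878, minus strand: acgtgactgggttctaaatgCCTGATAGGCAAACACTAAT
Rbm33, chr5:28563272-28573311, plus strand: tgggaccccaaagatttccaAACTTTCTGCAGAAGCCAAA
Celf2, chr2:6620499-6629530, minus strand: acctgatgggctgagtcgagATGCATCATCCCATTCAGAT
Ptbp1, chr10:79696658-79697881, plus strand: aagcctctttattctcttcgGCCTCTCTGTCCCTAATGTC
Qk, chr17:10457822-10501910, minus strand: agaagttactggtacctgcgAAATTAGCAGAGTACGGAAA
Elavl3, chr9:21935970-21948156, minus strand: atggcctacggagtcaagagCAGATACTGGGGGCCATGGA
Nova2, chr7:18676141-18684544, plus strand: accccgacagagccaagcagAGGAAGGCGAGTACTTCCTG

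In 3 pairs of paralogous hosts, picked out after their values were seen, the exons resembled each other at 1 side of the junction. The Khdrbs3 and Khdrbs2 circles shared 17 of the 20 bases at the start, and Rbfox1 and Rbfox2 shared 14. The Ddx17 and Ddx5 circles shared 15 of 20 bases at the end. Over 196 pairs of hosts from different families, the median was 5 identical bases at the start, with at most 10, and 6 at the end, with at most 13. The other side of these 3 pairs held 3, 6 and 5 identical bases. The other 11 pairs within a family had 1 to 11 identical bases at the start and 2 to 7 at the end, and paralogs such as Celf2 and Celf1 (6 and 3) or Srrm3 and Srrm4 (3 and 4) were among them. Reads that reach only a short way past a junction could still be split between such paralogs.

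The main circle of Ddx17 is shown whole, because it was the shortest of the 35 main circles with an ONT exon chain and is discussed at length below. It joined the end of exon 10 to the start of exon 9 of the 13 exons of its transcript, over 173 bases of coding sequence.
Ddx17 circle: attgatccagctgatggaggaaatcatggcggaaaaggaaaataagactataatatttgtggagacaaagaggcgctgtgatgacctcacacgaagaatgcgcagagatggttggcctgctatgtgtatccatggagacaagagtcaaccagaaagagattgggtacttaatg
The main circle of Rbfox1 was a single coding exon, exon 4 of 15, joined to itself over 240 bases.
Rbfox1 circle: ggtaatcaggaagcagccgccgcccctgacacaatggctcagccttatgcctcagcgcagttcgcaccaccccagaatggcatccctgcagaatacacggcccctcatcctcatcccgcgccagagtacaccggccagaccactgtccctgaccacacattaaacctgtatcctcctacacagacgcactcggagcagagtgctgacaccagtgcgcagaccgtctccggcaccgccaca

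The Illumina libraries held 1516772 to 4308264 back-splice reads, and the ONT libraries 186594 to 673705. ONT data were used for WT replicates 2 and 3 and for all 3 replicates of each mutant. Adar1-2KO replicate 3 stood apart, with 4308264 back-splice reads but only 21736 circles. That is 5.0 circles per 1000 back-splice reads, against 20.9 to 35.8 in the other 8 libraries, and it held 157 circles of the 39 genes, against 353 to 464. Counts of calls and the fold changes of the hosts with the lowest p were recomputed without it. Neuronal markers had circles for 10 of 10 genes in all 9 libraries, at 5390 to 6810 CPM (back-splice reads scaled to the library's total) in Adar1-2KO, 6180 to 6760 in Adar2KO and 5990 to 6660 in WT. The labels do not name the deleted exons. The targeted gene Adarb1, which encodes ADAR2, still gave 505, 215 and 759 host reads in Adar1-2KO and 317, 353 and 336 in Adar2KO, against 196, 94 and 84 in WT, so circle reads do not check the deletion. The most abundant Adarb1 circle had 134 to 724 reads in Adar1-2KO and 177 to 239 in Adar2KO, and was at 0 in the 3 WT libraries.

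The 39 genes gave 223061 Illumina back-splice reads over the 9 libraries, and a few circles carried most of them. The top circle, from Hnrnpu, held 21.7% of those reads, the top 2 held 37.4% and the top 10 held 62.2%. Of the 1141 circles, 75 were found in all 9 libraries (6.57%, against 4.53% of all circles), and these 75 held 84.4% of the reads (77.8% over all circles). At the other end, 544 circles were listed in 1 library only (47.7%, against 55.6% of all circles). The genes were rich hosts, with a median of 1271 reads per host, against 51 over all hosts, and 12 of them ranked among the top 1000. The smallest were Nova1, Celf5 and Hnrnpk, each with under 100 reads.

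By genotype, circles of the 39 genes took 1.01%, 1.07% and 0.757% of all Illumina back-splice reads in Adar1-2KO, 0.946%, 0.880% and 0.953% in Adar2KO, and 0.849%, 0.766% and 0.939% in WT. The means were 0.946% ± 0.166 in Adar1-2KO, 0.926% ± 0.0403 in Adar2KO and 0.851% ± 0.0865 in WT (SD, n = 3 each), and the 3 groups overlapped. Adar1-2KO overlapped the others through replicate 3 alone, since its other 2 libraries lay above every Adar2KO and WT library. In ONT the means were 0.699% ± 0.0347 in Adar1-2KO and 0.695% ± 0.0703 in Adar2KO (SD, n = 3 each), against 0.625% ± 0.00495 in WT (SD, n = 2). In bulk tissue, fewer cells of a type and fewer circles per cell cannot be told apart.

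Exonic circles made up 78.1% of the circles of these genes, intronic circles 20.2% and antisense circles 1.67%. In the rest of the series the shares were 73.9%, 14.2% and 2.72%, and another 9.15% were intergenic. Circles kept by the name of a host gene cannot be intergenic, so these shares are not like for like. Among circles that passed the filter on low counts, 89.0% were exonic for these genes and 89.3% in the rest. Of that filtered rest, 2.77% were still intergenic. Before the filter, the median genomic span was 10977 bp for these genes, against 11085 bp in the rest. The main circle was exonic in 35 hosts. It was intronic in Rbfox3, Hnrnpm and Msi2, and antisense in Celf4. On ONT, 332 of the circles were found again, which is 29.1% of the Illumina circles and 38.0% of the ONT circles of these genes. Host totals ordered the 39 genes much alike on both platforms within each library, with Spearman's rho of 0.840 to 0.921 across genes. Those values are a description, since both platforms read the same amplified RNA.

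Long reads gave an exon chain for 35 of the 39 main circles. The chains were 173 to 1162 bases long, with a median of 509 bases and 3 exons. Of these, 23 matched consecutive exons of a GENCODE transcript in full, 6 matched at their end exons only and 6 had no match. AG-GT splice sites that the annotation lists flanked 27 of the 35, and another 7 had AG-GT at unlisted sites. Of the 23 full matches, 18 were coding throughout, and in 5 of those the length was a multiple of 3. The circles of Mbnl2, Ptbp3 and Elavl2 held the annotated start codon of their gene, and that of Rbm39 held a stop codon.

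Among the 23 hosts with at least 1000 reads, the main circle held a median of 54.7% of the host's reads, against 50.2% over all 2793 such hosts. Circles that used one of the main circle's ends raised this to a median of 85.8%, against 75.5% over all such hosts. Hnrnpu was an extreme case, with 94.0% in its main circle and 5.54% in 19 circles that shared an end with it. Mbnl2 with 95.4% and Ptbp1 with 92.3% were alike. Rbfox2 with 23.0%, Celf1 with 29.7% and Celf2 with 30.4% spread their reads most. Without Adar1-2KO replicate 3 the median over the 23 hosts was 53.2%, and 20 of the 23 kept the same main circle. The exceptions were Rbm39, Rbfox2 and Hnrnpm, and the Rbfox2 circle held 6.51% of its host's reads without that library.

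**Figure D1:**
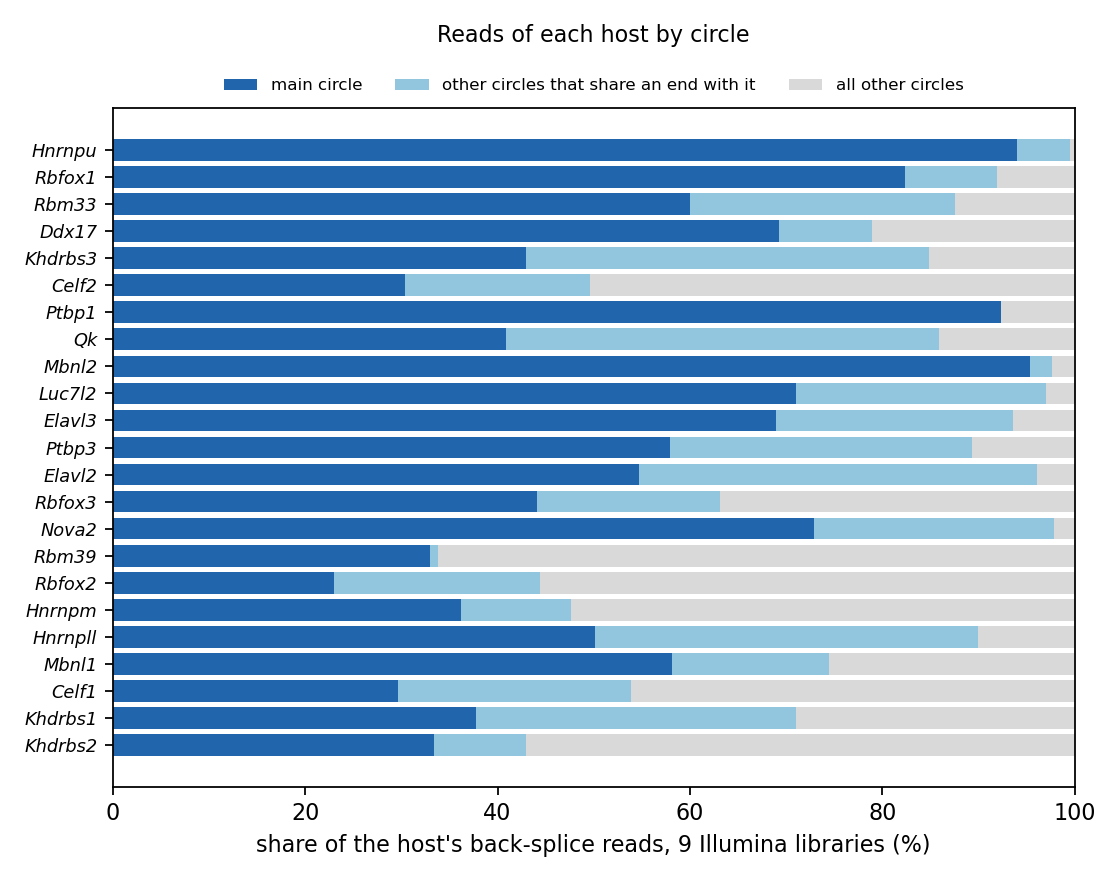
Share of each host's Illumina back-splice reads (percent, summed over 9 libraries) in its main circle, in circles that share an end with it and in all others, for the 23 hosts with at least 1000 reads. Mbnl2, Hnrnpu and Ptbp1 give over 92% of their reads to 1 circle, whereas Rbfox2, Celf1 and Celf2 give at most 30.4%.

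The hnRNP proteins package nascent transcripts. Their 5 genes gave 55145 reads, 24.7% of the total, and nearly all of these came from Hnrnpu, which encodes a nuclear scaffold protein and was the most productive of the 39 hosts with 51526 reads in 53 circles. Levels of hosts are given below as CPM, each host's back-splice reads scaled to the library's total with TMM factors. Hnrnpu had 2602, 2156 and 1178 CPM in Adar1-2KO, 2117, 1694 and 2591 CPM in Adar2KO, and 2352, 2048 and 2230 CPM in WT. The groups overlapped, and the low value was Adar1-2KO replicate 3. There CIRIquant listed 4676 reads for the main circle and CIRI2 listed 10979, a ratio of 0.426, whereas the ratio was 0.928 to 0.949 in the 7 other libraries with both tables. The Hnrnpu circle (chr1:178150699-178152878, minus strand) had 4 blocks with 278 bases in ONT. It matched a 6-exon transcript at its end exons only, which were exons 4 and 6. Its lower genomic position, 178150699, which is the end of the circle on the minus strand, was used by 15 circles. These together held 99.4% of the host's reads.

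The other hnRNP genes were far lower. Hnrnpm averaged 82.7 ± 52.5 CPM in Adar1-2KO, 71.5 ± 10.4 in Adar2KO and 59.8 ± 8.01 in WT (SD, n = 3 each). Hnrnpll, a regulator of alternative exons in lymphocytes, averaged 57.8 ± 27.6 CPM in Adar1-2KO, 58.1 ± 25 in Adar2KO and 54.4 ± 8.23 in WT. Hnrnpc, which binds uridine tracts, had 10.7, 8.42 and 0 CPM in Adar1-2KO and 10.1, 18.3 and 20.4 in Adar2KO, against 12.3, 24.5 and 13.0 in WT. Hnrnpk, which binds cytidine-rich RNA, was almost without circles, with 13 reads in Adar1-2KO, 8 in Adar2KO and 0 in WT. These were 6, 7 and 0 reads in Adar1-2KO and 0, 8 and 0 in Adar2KO, so Hnrnpk met the filter on low counts only through mutant libraries. ONT listed 0 and 2 reads of it in WT. So few reads set no fold difference, and neither comparison passed the test.

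The RBFOX proteins bind GCATG motifs beside alternative exons of neurons and muscle. Their 3 genes gave 47900 reads in 205 circles. Rbfox1 gave 42345 of these in 104 circles, more circles than any other of the 39 hosts. It had 2016, 2373 and 1168 CPM in Adar1-2KO, 2225, 1767 and 1903 CPM in Adar2KO, and 1311, 1160 and 1765 CPM in WT. All Adar2KO libraries were above all WT libraries, by a narrow margin, and Adar1-2KO overlapped both. The single-exon circle shown above held 82.4% of the reads, and the start of that exon was used by 18 circles with 91.7% of the reads. Its reads were 5549, 4582 and 4268 in Adar1-2KO, 4762, 3468 and 4841 in Adar2KO and 3210, 2034 and 2184 in WT.

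Rbfox3, the gene of the neuronal nuclear antigen NeuN, averaged 138 ± 73.0 CPM in Adar1-2KO, 167 ± 17.5 in Adar2KO and 116 ± 38.8 in WT (SD, n = 3 each). Its main circle lay in an intron and held 44.1% of its reads. Rbfox2 averaged 97.1 ± 41.6 CPM in Adar1-2KO, 78.4 ± 14.0 in Adar2KO and 72.5 ± 23.4 in WT. Of the reads of its main circle, 77.1% came from Adar1-2KO replicate 3. The groups overlapped for both genes.

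The RBM genes of the list encode RNA-binding proteins with RS-like or arginine-rich regions. Rbm33 gave 18237 reads in 55 circles. It had 746.6, 857.9 and 504.8 CPM in Adar1-2KO, 789.7, 859.9 and 759.1 CPM in Adar2KO, and 740.4, 748.8 and 823.3 CPM in WT, and the groups overlapped. Its main circle took exons 8 to 10 of 19 and held 60.0% of the reads. Rbm39, a cofactor of U2AF-type recognition, was higher in Adar1-2KO, at 115.0, 113.5 and 118.3 CPM, than in Adar2KO, at 97.83, 90.08 and 70.45 CPM, and WT, at 92.82, 95.34 and 68.44 CPM. Adar1-2KO overlapped neither other group. Rbm25, which acts with the U1 snRNP, had 27.51, 31.92 and 9.773 CPM in Adar1-2KO, 11.62, 17.84 and 8.079 CPM in Adar2KO, and 27.15, 29.16 and 26.07 CPM in WT. All Adar2KO libraries lay below all WT libraries in Illumina, but above them in ONT on few reads, as given below.

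DDX17 and DDX5 are paralogous DEAD-box helicases that unwind RNA duplexes and act as splicing cofactors. Ddx17 gave 14903 reads in 31 circles, and Ddx5 gave 335. Ddx17 had 713.6, 647.7 and 936.8 CPM in Adar1-2KO, 461.8, 455.6 and 665.0 CPM in Adar2KO, and 304.0, 476.7 and 530.6 CPM in WT. All Adar1-2KO libraries were above all WT libraries, and 1 Adar2KO library lay among the Adar1-2KO values. Its second circle, at chr15:79425235-79428057, held 12.0% of the reads, and 956 of those 1783 reads came from Adar1-2KO replicate 3. Ddx5 averaged 14.7 ± 8.92 CPM in Adar1-2KO, 13.5 ± 4.11 in Adar2KO and 14.4 ± 6.33 in WT (SD, n = 3 each).

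The STAR proteins share a KH-type RNA-binding domain. Khdrbs3, which encodes SLM2, a regulator of neurexin exons, gave 14656 reads. It had 558.6, 667.7 and 500.6 CPM in Adar1-2KO, 555.5, 560.1 and 636.9 CPM in Adar2KO, and 637.5, 700.7 and 586.0 CPM in WT, with overlapping groups. Most of its reads were in circles that used one start, with 43.0% in the circle of exons 3 to 7 and 32.1% in a shorter one ending at 68901759. Khdrbs1, the gene of SAM68, had 57.34, 55.86 and 18.08 CPM in Adar1-2KO, 33.73, 27.85 and 60.75 CPM in Adar2KO, and 55.25, 62.94 and 46.28 CPM in WT. Khdrbs2, the gene of SLM1, had 49.23, 45.66 and 19.06 CPM in Adar1-2KO, 41.23, 26.11 and 67.54 CPM in Adar2KO, and 49.25, 58.31 and 59.97 CPM in WT. All Adar1-2KO values were below all WT values in Illumina, the nearest pair by a narrow margin, but not in ONT.

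Qk encodes Quaking, a STAR protein of oligodendrocytes and astrocytes that is known to drive circle formation in other systems. It had 190.0, 341.8 and 641.1 CPM in Adar1-2KO, 256.0, 272.4 and 186.8 CPM in Adar2KO, and 212.8, 206.0 and 273.8 CPM in WT. The high value was again Adar1-2KO replicate 3, and the groups overlapped. The main circle, exons 2 to 4 of 7, held 40.9% of the reads. A single-exon circle at chr17:10457822-10457965 held 20.6%, with 0, 204 and 790 reads in Adar1-2KO, 195, 216 and 0 in Adar2KO, and 0, 0 and 138 in WT. Circles of 12 oligodendrocyte lineage markers, of which 10 had circles and Mog and Cspg4 had none, summed to 571 to 772 CPM in Adar1-2KO, 505 to 563 in Adar2KO and 475 to 497 in WT. Their part in the Qk values was not tested.

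The CELF proteins bind UG-rich RNA and oppose Muscleblind at many exons. Celf2 gave 10086 reads in 74 circles. It had 452.9, 440.7 and 469.9 CPM in Adar1-2KO, 398.8, 444.3 and 377.8 CPM in Adar2KO, and 339.1, 304.1 and 404.1 CPM in WT. Adar1-2KO lay above WT without overlap in Illumina, and overlapped Adar2KO. In ONT, Celf2 had 382, 300 and 362 CPM in Adar1-2KO, 547, 382 and 539 CPM in Adar2KO, and 370 and 393 CPM in WT. Adar1-2KO and WT overlapped there. Celf1 averaged 48.5 ± 32.1 CPM in Adar1-2KO, 46.2 ± 16.3 in Adar2KO and 58.6 ± 9.66 in WT (SD, n = 3 each). Celf4 and Celf5 gave 132 and 59 reads.

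The PTBP proteins bind pyrimidine tracts and silence exons, PTBP1 outside neurons and PTBP2 in young neurons. Ptbp1, although a gene mainly of non-neuronal cells, was the richest of the 3 in circles, with 7615 reads, 92.3% of them from a circle of exons 8 and 9. It had 389.2, 356.4 and 163.0 CPM in Adar1-2KO, 313.0, 292.9 and 423.6 CPM in Adar2KO, and 229.5, 260.6 and 450.4 CPM in WT, and the groups overlapped widely. Ptbp3 gave 5873 reads and averaged 233 ± 67.1 CPM in Adar1-2KO, 254 ± 22.3 in Adar2KO and 237 ± 33.7 in WT (SD, n = 3 each). Ptbp2 gave 471 reads.

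The neuronal ELAVL proteins (Hu proteins) bind AU-rich and U-rich RNA. Elavl3 gave 6143 reads, Elavl2 gave 4965 and Elavl4 gave 168. Elavl3 had 356.2, 300.1 and 306.2 CPM in Adar1-2KO, 198.7, 255.9 and 205.8 CPM in Adar2KO, and 150.0, 220.8 and 179.9 CPM in WT. Adar1-2KO lay above both other groups without overlap. Elavl2 averaged 206 ± 26.3 CPM in Adar1-2KO, 211 ± 23.6 in Adar2KO and 196 ± 19.5 in WT (SD, n = 3 each). Elavl4 had 8.399, 4.877 and 18.33 CPM in Adar1-2KO, 2.624, 1.741 and 0.6463 CPM in Adar2KO, and 11.05, 0 and 3.259 CPM in WT.

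The NOVA proteins bind clusters of YCAY motifs and shape synaptic exons. Nova2 gave 3369 reads from only 6 circles, with 72.9% in the circle of exons 2 and 3 of 4 and 22.9% in a longer one ending at 18692510. It had 100.5, 104.6 and 119.5 CPM in Adar1-2KO, 169.0, 177.1 and 146.4 CPM in Adar2KO, and 178.1, 96.27 and 139.5 CPM in WT. Adar1-2KO lay below Adar2KO without overlap, and WT spread across both. Nova1 gave 66 reads.

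Of the Muscleblind genes, whose proteins bind YGCY motifs and whose own transcript is a classic source of a circle that its protein promotes, Mbnl2 gave 7316 reads and Mbnl1 gave 1271. Mbnl1 averaged 59.1 ± 20.8 CPM in Adar1-2KO, 50.1 ± 5.76 in Adar2KO and 37.3 ± 10.1 in WT (SD, n = 3 each). All its Adar1-2KO values were above all WT values in Illumina, but not in ONT. The genes of spliceosome parts gave 8343 reads, mostly from Luc7l2, a U1-associated protein, at 270 ± 22.2 CPM in Adar1-2KO, 263 ± 22.9 in Adar2KO and 311 ± 51.3 in WT. Sf3b1, the branch point subunit of the U2 snRNP, had 11.87, 18.18 and 78.92 CPM in Adar1-2KO, 13.12, 4.787 and 13.9 CPM in Adar2KO, and 12.63, 8.331 and 13.04 CPM in WT. The high value was Adar1-2KO replicate 3 alone, and U2surp showed the same, with 87.72 CPM there and 13.04 to 37.42 CPM in the other 8 libraries.

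The remaining hosts were small. Tardbp, the gene of TDP-43, had 0, 0 and 73.54 CPM in Adar1-2KO, 1.124, 1.305 and 7.109 CPM in Adar2KO, and 4.104, 10.64 and 0 CPM in WT, so that most of its Illumina reads were in 1 library. In ONT, Tardbp had 11.2, 17.1 and 60.8 CPM in Adar1-2KO, 125, 92.6 and 72.3 CPM in Adar2KO, and 24.7 and 0 CPM in WT, with Adar2KO above all other libraries. Tia1, which promotes use of weak splice donors, averaged 28.0 ± 20.4 CPM in Adar1-2KO, 32.0 ± 13.4 in Adar2KO and 22.7 ± 6.81 in WT (SD, n = 3 each). The neuronal microexon activators Srrm3 and Srrm4 gave 465 and 271 reads. Msi2, a Musashi protein of progenitor cells, gave 378.

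**Figure D2:**
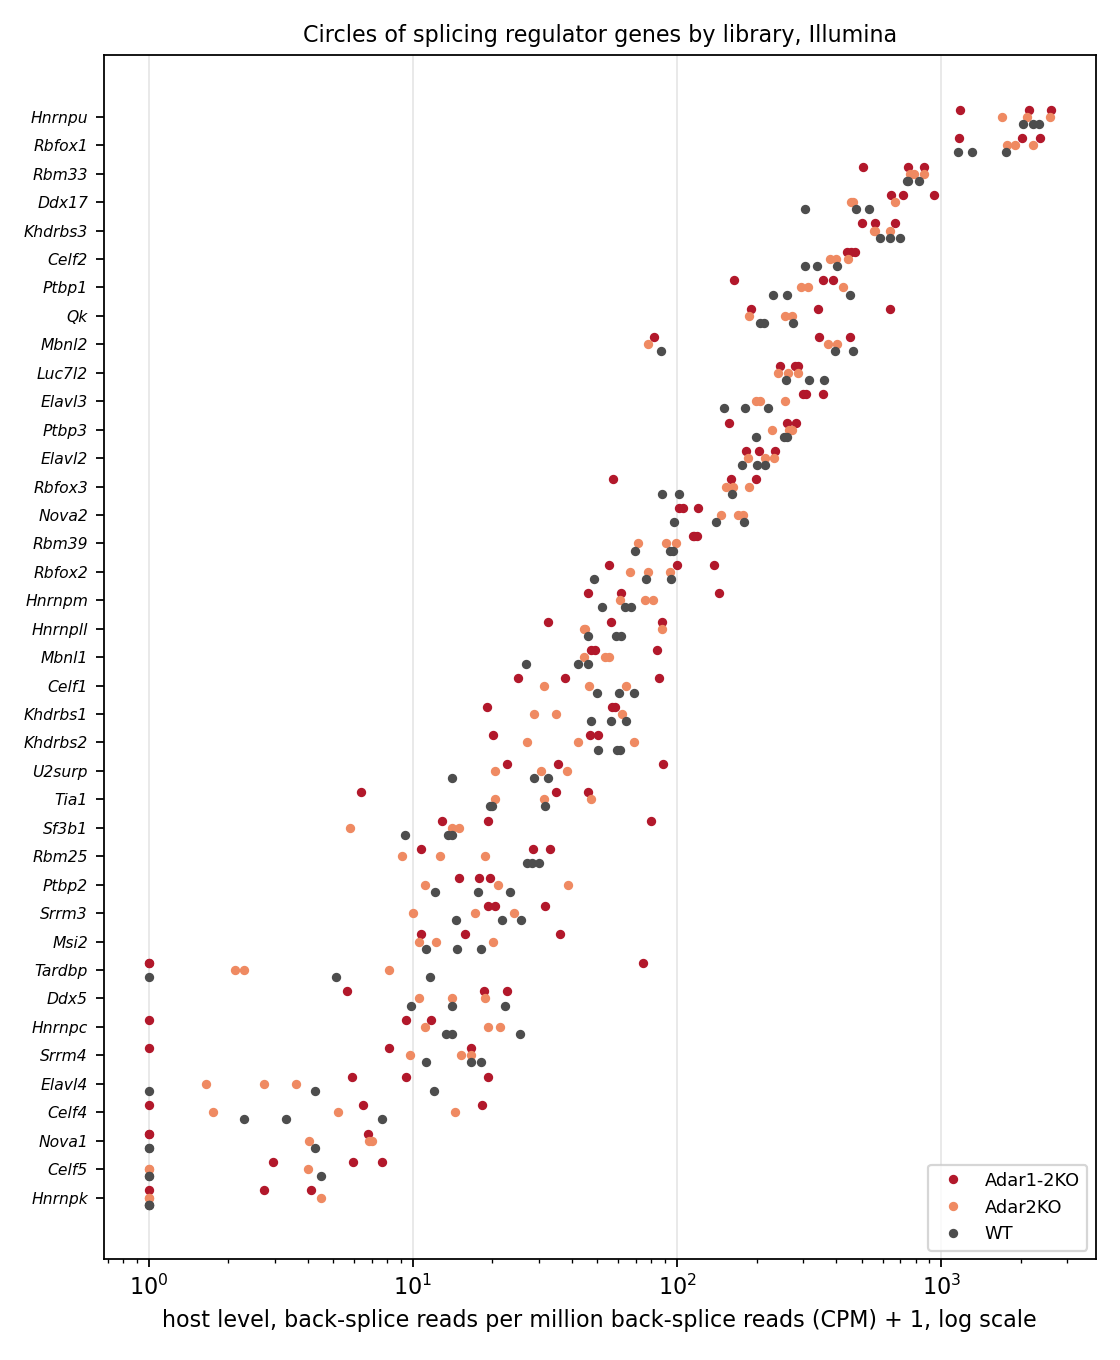
Level in CPM plus 1 (horizontal log axis) of each of the 39 hosts in the 9 Illumina libraries, hosts from top to bottom in order of their reads. For each host the points of Adar1-2KO are drawn uppermost, then Adar2KO, then WT. Hnrnpu and Rbfox1 stand above 1100 CPM in every library, and Adar1-2KO replicate 3 is the outlying point for Tardbp, Sf3b1 and U2surp.

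The genotypes were then compared host by host in one edgeR quasi-likelihood fit over 8753 hosts, with Benjamini-Hochberg adjustment over all of them. None of the 39 hosts passed an adjusted p of 0.05 in any of the 3 Illumina comparisons. The share called over all hosts was 0.114% for Adar1-2KO against WT, 0.0685% for Adar2KO against WT and 0.0685% for Adar1-2KO against Adar2KO. DESeq2 also called none of the 39. At an unadjusted p under 0.05, edgeR listed 2 hosts for Adar1-2KO against WT, 0 for Adar2KO against WT and 3 for Adar1-2KO against Adar2KO. That is 5.13%, 0% and 7.69% of the 39, against 7.67%, 1.74% and 6.68% of all hosts, so the shares were close to the background.

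As a group the 39 hosts lay slightly above the rest in Adar1-2KO. The median log2 fold change of Adar1-2KO against WT was 0.24 over the 39 hosts and -0.07 over all hosts, with 24 hosts higher and 15 lower (61.5% higher, against 46.7% of all hosts). For Adar1-2KO against Adar2KO the medians were 0.10 and -0.10, with 23 higher and 16 lower (59%, against 44.1%). For Adar2KO against WT they were 0.06 and 0.01, with 22 higher and 17 lower (56.4%, against 51%). Without Adar1-2KO replicate 3 the medians for Adar1-2KO against WT were 0.25 over the 39 hosts and 0.01 over all hosts. Of the 39, 30 were higher and 9 lower, where 50.6% of all hosts were higher. For Adar1-2KO against Adar2KO the medians were then 0.14 and -0.01, with 28 higher and 11 lower, where 49.1% of all hosts were higher. The 39 were richer in reads than most hosts, and all hosts were not matched to them for this. These comparisons share libraries, so they are not independent of each other. Cell type markers also differed between the groups. Circles of 10 ependyma and choroid plexus markers, of which 8 had circles and Ttr and Foxj1 had none, summed to 531 to 758 CPM in Adar1-2KO and 437 to 576 in Adar2KO, both below the 790 to 955 in WT. The oligodendrocyte lineage sum given above was higher in Adar1-2KO without overlap. Their part in these medians was not tested.

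Without overlap between Illumina libraries, 5 hosts were higher in Adar1-2KO than in WT (Celf2, Ddx17, Elavl3, Mbnl1 and Rbm39), where 4.56% of all hosts were. Hnrnpc and Khdrbs2 were lower, where 8.75% of all hosts were. Against Adar2KO, 3 hosts were higher in Adar1-2KO (Elavl3, Elavl4 and Rbm39; 4.14% of all hosts) and Nova2 was lower (8.01%). Between Adar2KO and WT, Rbfox1 was higher (6.01%) and Rbm25 lower (5.88%). In ONT, Mbnl1 had 44.7, 41.0 and 138 CPM in Adar1-2KO against 49.4 and 53.8 CPM in WT. Hnrnpc averaged 33.7 CPM in Adar1-2KO and 17.7 in WT there, and Khdrbs2 averaged 26.5 and 16.1. For these 2 hosts the ONT means went the other way than in Illumina, with few reads and overlapping libraries. An exact permutation test of 3 against 3 libraries cannot go below a 2-sided p of 0.1.

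**Figure D3:**
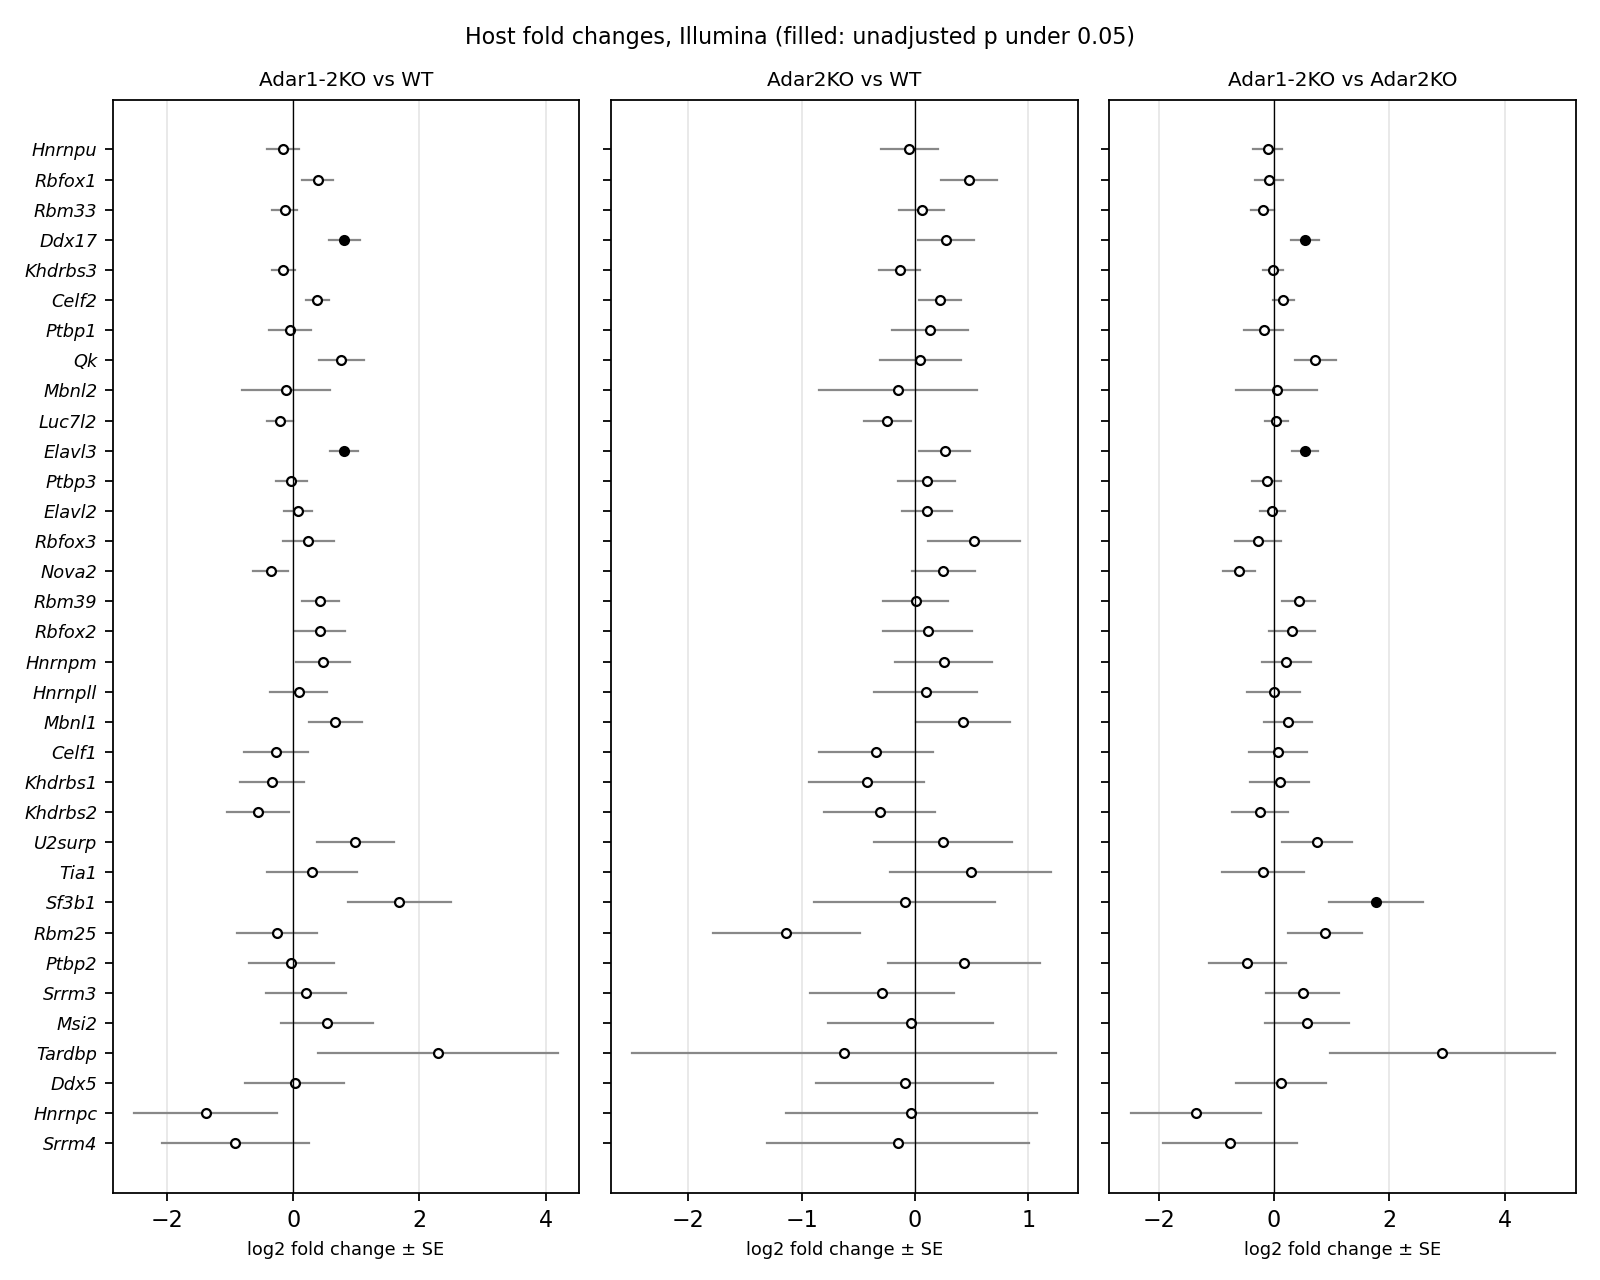
Log2 fold change (edgeR, ± SE) of the 34 hosts with at least 250 Illumina reads, in 3 panels for Adar1-2KO against WT, Adar2KO against WT and Adar1-2KO against Adar2KO. Filled points have an unadjusted p under 0.05: Ddx17 and Elavl3 in the first panel, none in the second, and Elavl3, Ddx17 and Sf3b1 in the third, and no host passed the adjusted threshold.

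Ddx17 was higher in Adar1-2KO than in WT on both platforms, without passing the adjusted threshold. Its Illumina host total gave a log2 fold change of 0.81 ± 0.25 (SE) against WT in edgeR, with an unadjusted p of 0.00653 and an adjusted p of 0.515. Against Adar2KO it was 0.54 ± 0.25, with an unadjusted p of 0.0497. In ONT, Ddx17 had 330, 304 and 484 CPM in Adar1-2KO, 263, 174 and 159 CPM in Adar2KO, and 222 and 156 CPM in WT. All Adar1-2KO libraries were above all others there, and the ONT log2 fold changes were 0.98 ± 0.34 against WT (edgeR, unadjusted p 0.0119) and 0.92 ± 0.28 against Adar2KO (unadjusted p 0.00634).

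The main Ddx17 circle, whose sequence is given above, differed more than the host total. It had 544.7, 499.9 and 630.9 CPM in Adar1-2KO, 347.9, 295.7 and 518.1 CPM in Adar2KO, and 167.0, 235.5 and 356.9 CPM in WT. Its Illumina log2 fold change against WT was 1.14 ± 0.31 (edgeR, unadjusted p 0.00207, adjusted p 0.678), and its ONT value was 1.97 ± 0.45 (unadjusted p 0.00115, adjusted p 0.331). ONT reads of the circle were 79, 48 and 136 in Adar1-2KO, 41, 27 and 22 in Adar2KO, and 11 and 9 in WT. It also took a larger share of its host's ONT reads in Adar1-2KO, at 53.4%, 53.9% and 41.7%, than in WT, at 24.4% and 31.0%. Adar2KO, at 42.3%, 34.2% and 32.4%, overlapped Adar1-2KO. In Illumina the share was 74.5%, 77.8% and 67.8% in Adar1-2KO, 72.9%, 65.1% and 75.3% in Adar2KO, and 54.6%, 51.5% and 69.9% in WT. Adar1-2KO overlapped both other groups there.

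Flow cell and genotype were partly confounded, by the read names in the CIRI2 tables. All 3 WT libraries came from flow cell 1, and Adar2KO replicates 1 and 2 mainly from flow cell 2. Adar1-2KO replicate 3 was split over 2 flow cells, with 51.3% of its back-splice reads in flow cell 3 and 0% in flow cell 1. The flow cell of Adar1-2KO replicate 1 was not known, since no CIRI2 table of it was used. The 5 libraries mainly from flow cell 1 were Adar1-2KO replicate 2, Adar2KO replicate 3 and the 3 WT. Within these, Ddx17 was 0.58 higher against WT on the log2 scale (edgeR, unadjusted p 0.0953) and -0.03 against Adar2KO (p 0.932). Elavl3 was 0.72 against WT (p 0.0349) and 0.55 against Adar2KO (p 0.167). The corresponding main circle of Ddx17 was 1 against WT on the same scale (p 0.0594). With 1 library in each mutant arm, these values assume that the lone library varies as the WT libraries do. Without Adar1-2KO replicate 3, the log2 fold change of Ddx17 was 0.64 against WT and 0.36 against Adar2KO.

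Elavl3 differed in opposite directions on the 2 platforms. Its Illumina host total was higher in Adar1-2KO than in WT, with a log2 fold change of 0.81 ± 0.22 (edgeR, unadjusted p 0.00351, adjusted p 0.466), and than in Adar2KO, with 0.54 ± 0.22 (unadjusted p 0.0309). In ONT, Elavl3 had 286, 304 and 313 CPM in Adar1-2KO, 428, 392 and 418 CPM in Adar2KO, and 430 and 414 CPM in WT. Adar1-2KO was thus lowest there, with -0.49 ± 0.22 against WT (unadjusted p 0.0443) and -0.45 ± 0.19 against Adar2KO (unadjusted p 0.0348). None of the 4 values passed the adjusted threshold.

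The tables also split Elavl3 circles differently. The main circle, exons 2 to 6 of 7, had 658, 427 and 1191 Illumina reads in Adar1-2KO, 346, 383 and 448 in Adar2KO, and 296, 327 and 158 in WT. Its ratio of CIRIquant to CIRI2 reads was 0.943 and 0.986 in Adar1-2KO replicates 2 and 3. In Adar2KO the ratio was 0.824, 0.822 and 0.79, and in WT 0.645, 0.874 and 0.596. The part of these ratios in the Illumina difference was not tested. A circle whose higher genomic position lay 3 bases lower, at 21948153, had 102, 57 and 5 reads in Adar1-2KO, 69, 89 and 78 in Adar2KO, and 110, 52 and 49 in WT. The single-exon circle at chr9:21947608-21948156 had 342, 0 and 57 Illumina reads in Adar1-2KO and 0 in the other 6 libraries, whereas ONT listed it in every library. Its ONT reads were 23, 22 and 14 in Adar1-2KO, 58, 36 and 44 in Adar2KO, and 11 and 8 in WT.

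**Figure D4:**
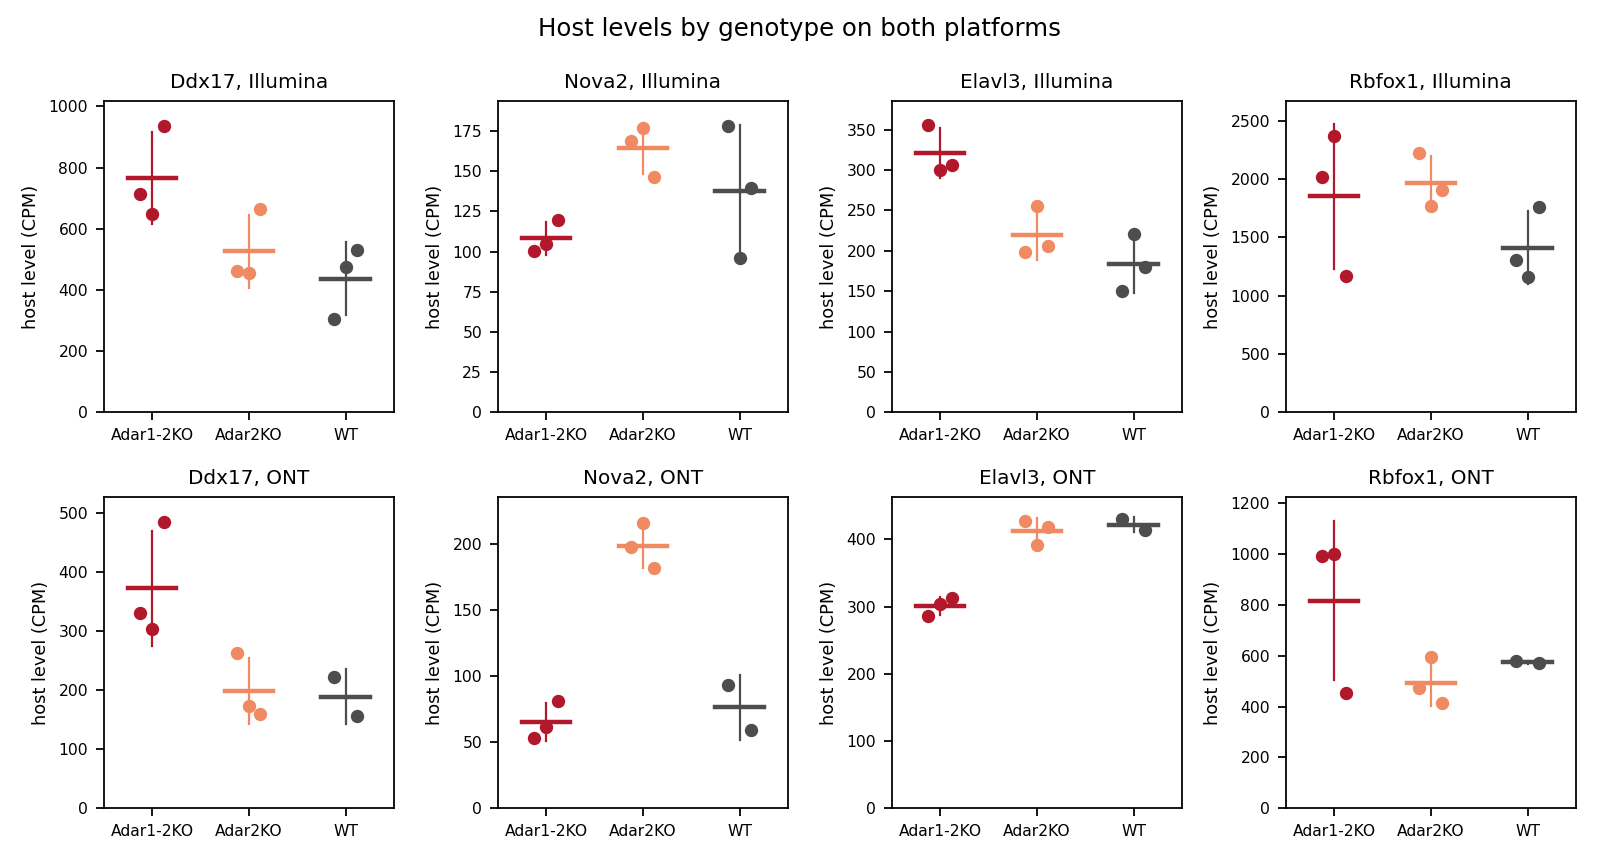
Level in CPM of Ddx17, Nova2, Elavl3 and Rbfox1 in each library (points) with mean and SD (bars), Illumina above and ONT below, with Adar1-2KO left, Adar2KO in the middle and WT right. Ddx17 is highest in Adar1-2KO on both platforms, Nova2 is lower in Adar1-2KO than in Adar2KO on both, and Elavl3 is highest in Adar1-2KO on Illumina but lowest there in ONT.

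Of the other hosts with the lowest p, Sf3b1 was 1.77 ± 0.81 higher on the log2 scale in Adar1-2KO than in Adar2KO (edgeR, unadjusted p 0.0486), and 0.48 without Adar1-2KO replicate 3 (p 0.414). Qk was 0.76 ± 0.36 against WT (p 0.0537), and 0.20 without that library (p 0.474). For Adar2KO against WT, Rbfox1 was 0.48 ± 0.25 (p 0.0753) and Rbm25 was -1.13 ± 0.65 (p 0.104), followed by Hnrnpk, which had no reads in WT. In ONT, Rbfox1 had 989, 1000 and 454 CPM in Adar1-2KO, 472, 593 and 415 CPM in Adar2KO, and 578 and 570 CPM in WT, so Adar2KO was not above WT there. ONT values of Rbm39 were 170, 188 and 145 CPM in Adar1-2KO, 157, 172 and 133 CPM in Adar2KO, and 79.0 and 53.8 CPM in WT. Both mutants were above WT there, with log2 fold changes of 1.32 ± 0.37 for Adar1-2KO (unadjusted p 0.00352, adjusted p 0.216) and 1.21 ± 0.37 for Adar2KO (unadjusted p 0.00644, adjusted p 0.624).

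In ONT, 38 of the 39 hosts passed the filter among 5371 hosts, and Nova2 was the one that passed the test. Nova2 fell in Adar1-2KO against Adar2KO, with a log2 fold change of -1.58 ± 0.33 (edgeR, adjusted p 0.039), where 0.354% of all hosts were called lower and 1.02% in either direction. It had 53.6, 61.5 and 81.6 CPM in Adar1-2KO, against 198, 216 and 182 CPM in Adar2KO, and WT had 93.8 and 59.2 CPM. The Adar2KO libraries stood above all 5 others. For Adar2KO against WT the log2 fold change was 1.37 ± 0.40 (unadjusted p 0.00442, adjusted p 0.565), and for Adar1-2KO against WT it was -0.22. No host of the 39 was called in those comparisons, where 0.0745% and 0.0372% of all hosts were. At an unadjusted p under 0.05, edgeR listed 3 of the 38 for Adar2KO against WT, 5 for Adar1-2KO against WT and 6 for Adar1-2KO against Adar2KO, against 5.7%, 10.2% and 13.1% of all hosts, and DESeq2 called 0 in the first 2 comparisons.

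The Nova2 call was kept without Adar1-2KO replicate 3 (adjusted p 0.00328) and lost without each other library. Without Adar1-2KO replicates 1 and 2 in turn the adjusted p was 0.108 and 0.103, without Adar2KO replicates 1 to 3 in turn it was 0.176, 0.19 and 0.182, and without WT replicates 2 and 3 in turn it was 0.0688 and 0.064. The log2 fold change lay between -1.79 and -1.47 in these fits. With the replicate number as a block it was -1.58, with an adjusted p of 0.0727. In Illumina, Nova2 was -0.60 ± 0.28 in Adar1-2KO against Adar2KO (edgeR, unadjusted p 0.0503, adjusted p 0.739).

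The same held for the main Nova2 circle, the junction of exons 3 and 2 shown above. Among 10367 ONT circles tested, 81 were from these hosts, and this circle was the one called, with a log2 fold change of -2.45 ± 0.42 in Adar1-2KO against Adar2KO (edgeR, adjusted p 0.0324). Of all ONT circles 0.125% were called lower in that comparison, and 0.492% in either direction. ONT reads were 15, 5 and 29 in Adar1-2KO, 62, 89 and 75 in Adar2KO, and 19 and 11 in WT. Illumina reads were 237, 134 and 489 in Adar1-2KO, 336, 289 and 273 in Adar2KO, and 470, 86 and 141 in WT, with a log2 fold change of -0.48 ± 0.50 for Adar1-2KO against Adar2KO (unadjusted p 0.351). The circle's ONT call was kept without Adar1-2KO replicate 3 (adjusted p 0.00806) and lost without each other library. Those adjusted p values were 0.113 and 0.0916 without Adar1-2KO replicates 1 and 2, 0.137, 0.142 and 0.178 without Adar2KO replicates 1 to 3, and 0.0806 and 0.0772 without WT replicates 2 and 3. The block gave 0.101.

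For Adar2KO against WT, 0.00965% of ONT circles were called, and for Adar1-2KO against WT 0% were, none of them from these hosts. At an unadjusted p under 0.05, edgeR listed 5 of the 81 for Adar2KO against WT, 4 for Adar1-2KO against WT and 10 for Adar1-2KO against Adar2KO, and it listed 4.28%, 7.49% and 10.6% of all circles tested in the same comparisons. DESeq2 called the Nova2 circle in the last comparison and none in the other 2.

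Circle by circle in Illumina, 254 of the 1141 circles were tested among 38297, and none passed in edgeR. The shares called over all circles were 0.0627% for Adar1-2KO against WT, 0.0209% for Adar2KO against WT and 0.0209% for Adar1-2KO against Adar2KO. At an unadjusted p under 0.05 there were 14, 4 and 10 circles in these comparisons, or 5.51%, 1.57% and 3.94% of the 254, against 6.74%, 1.82% and 6.38% of all circles. The median log2 fold changes were -0.20, 0.08 and -0.23, against -0.26, 0.04 and -0.31 over all circles tested. DESeq2 called 1, 0 and 1. Both calls were the Celf2 circle at chr2:6608835-6629530, with adjusted p values of 0.00587 and 0.0287. Its Illumina reads were 0, 0 and 0 in Adar1-2KO, 0, 28 and 34 in Adar2KO, and 42, 31 and 26 in WT. ONT reads of that circle were 6, 0 and 17 in Adar1-2KO, 7, 9 and 5 in Adar2KO, and 5 and 2 in WT. Illumina listed no read of it in 4 brains, and ONT found it in 3 of those 4.

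The main Celf2 circle was higher in Adar1-2KO without passing the test. This circle, at chr2:6620499-6629530, had 157.0, 148.2 and 260.1 CPM in Adar1-2KO, 94.53, 92.78 and 69.53 CPM in Adar2KO, and 69.86, 58.66 and 68.99 CPM in WT. The log2 fold change was 1.52 ± 0.39 against WT (edgeR, unadjusted p 0.00144, adjusted p 0.558), and 1.23 without Adar1-2KO replicate 3 (unadjusted p 0.000775). Within flow cell 1 it was 1.19 (p 0.00853). The circle took 33.8%, 33.9% and 55.7% of the host's reads in Adar1-2KO, 22.9%, 21% and 17.8% in Adar2KO, and 20.5%, 20.1% and 17.7% in WT. In ONT it took 19.3%, 17% and 24.2% in Adar1-2KO, 4.95%, 5.2% and 3.03% in Adar2KO, and 10.7% and 6.85% in WT. Adar1-2KO lay above both other groups on each platform.

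The share of the main circle was looked at in all 23 hosts with at least 1000 reads, after the Celf2 values had been seen. On both platforms, Celf2 was higher in Adar1-2KO than in WT without overlap, where 2.29% of all such hosts were. Celf2 and Luc7l2 were higher in Adar1-2KO than in Adar2KO, where 1.84% were, and Hnrnpm and Ptbp1 were higher in Adar2KO than in WT, where 0.819% were. The nearest Illumina libraries lay close for Luc7l2, at 70.6% and 69.5%, and for Ptbp1, at 93.3% and 93.1%. For Hnrnpm, the circle had 3, 3 and 4 ONT reads in Adar2KO and 0 and 2 in WT. It was the main circle of Hnrnpm only with Adar1-2KO replicate 3, which held 68.1% of its Illumina reads. The leading ONT circle of Celf2 was another one, at chr2:6668926-6726424, with 31, 13 and 60 ONT reads in Adar1-2KO, 74, 60 and 68 in Adar2KO, and 14 and 22 in WT. Its Illumina reads were 273, 160 and 440 in Adar1-2KO, 195, 205 and 167 in Adar2KO, and 253, 102 and 101 in WT.

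The deposited junction ratio sets back-splice reads, counted at both ends, against forward-splice reads at the same sites, and is called the circular share here. Circular RNA had been enriched with RNase R, so this share describes the treated RNA and not the share of circles in brain. It was near its ceiling in most libraries for several of the large circles. The main Hnrnpu circle had 99.5%, 95.3% and 81.8% in Adar1-2KO, 98.7%, 92.5% and 100% in Adar2KO, and 99.5%, 92.7% and 93.7% in WT. The Khdrbs3 circle had 100%, 100% and 53.6% in Adar1-2KO and 98.8%, 98.1% and 99.3% in Adar2KO, against 100%, 99.3% and 98.0% in WT. For both, the lowest value was Adar1-2KO replicate 3. The Rbm33 circle showed the same, with 99.7%, 93.6% and 79.3% in Adar1-2KO, 90.6%, 88.0% and 86.8% in Adar2KO, and 100%, 83.9% and 86.7% in WT.

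Other main circles had more linear reads at their splice sites. The Rbfox1 circle had 100%, 68.9% and 87.2% in Adar1-2KO, 63.1%, 80.9% and 71.3% in Adar2KO, and 74.0%, 38.8% and 62.8% in WT. The Ptbp1 circle had 81.9%, 79.8% and 43.8% in Adar1-2KO, 86.8%, 75.6% and 82.1% in Adar2KO, and 62.5%, 23.5% and 82.0% in WT. The groups overlapped in both. The Qk circle had 100%, 100% and 65.8% in Adar1-2KO, 79.8%, 79.4% and 75.9% in Adar2KO, and 100%, 74.5% and 100% in WT. The Celf2 circle was at 100% in every library but Adar1-2KO replicate 3, at 79.4%.

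For Ddx17, most reads at the splice sites were linear in 8 of 9 libraries, as they were for the main circle of Elavl2. Its main circle had a circular share of 34.0%, 29.5% and 100% in Adar1-2KO, 10.5%, 14.4% and 29.3% in Adar2KO, and 7.1%, 3.7% and 19.8% in WT. All Adar1-2KO values lay above all Adar2KO and WT values, but the nearest pair was 29.5% against 29.3%. How many of all circles separate in this way was not computed. For this circle, limma gave an unadjusted p of 0.0805 against WT and 0.132 against Adar2KO. A share of 100% means that no forward-splice read was listed, and such zeros stood beside listed forward reads for the same site in other libraries. On the log2 odds scale, limma tested 6353 circles with at least 20 reads in every library, and none of the 50 from these hosts passed. The shares called over all circles were 0.0944% for Adar1-2KO against WT, 0.0787% for Adar2KO against WT and 0.189% for Adar1-2KO against Adar2KO. At an unadjusted p under 0.05, limma listed 3, 1 and 2 of the 50, or 6%, 2% and 4%, against 4.79%, 2.93% and 5.13% of all circles.

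Mbnl2 showed how far a level can depend on the table. Its single-exon circle (exon 2 of 9, chr14:120562206-120562824) had a level, in CPM of the table's own back-splice reads, of 61.4, 342.9 and 418.0 in the CIRIquant tables of Adar1-2KO, 391.0, 354.0 and 70.1 in Adar2KO, and 449.6, 66.6 and 389.0 in WT. One library of each genotype was thus low. In the CIRI2 tables of the same reads the circle had 266.1 and 337.4 in Adar1-2KO replicates 2 and 3, 308.8, 281.8 and 299.1 in Adar2KO, and 369.1, 288.6 and 294.8 in WT. ONT gave 403.6, 357.0 and 479.4 in Adar1-2KO, 370.5, 321.7 and 432.5 in Adar2KO, and 453.1 and 450.2 in WT. Neither of those tables had the low values, and the ratio of CIRIquant to CIRI2 reads was 0.183 in Adar2KO replicate 3 and 0.177 in WT replicate 2.

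**Figure D5:**
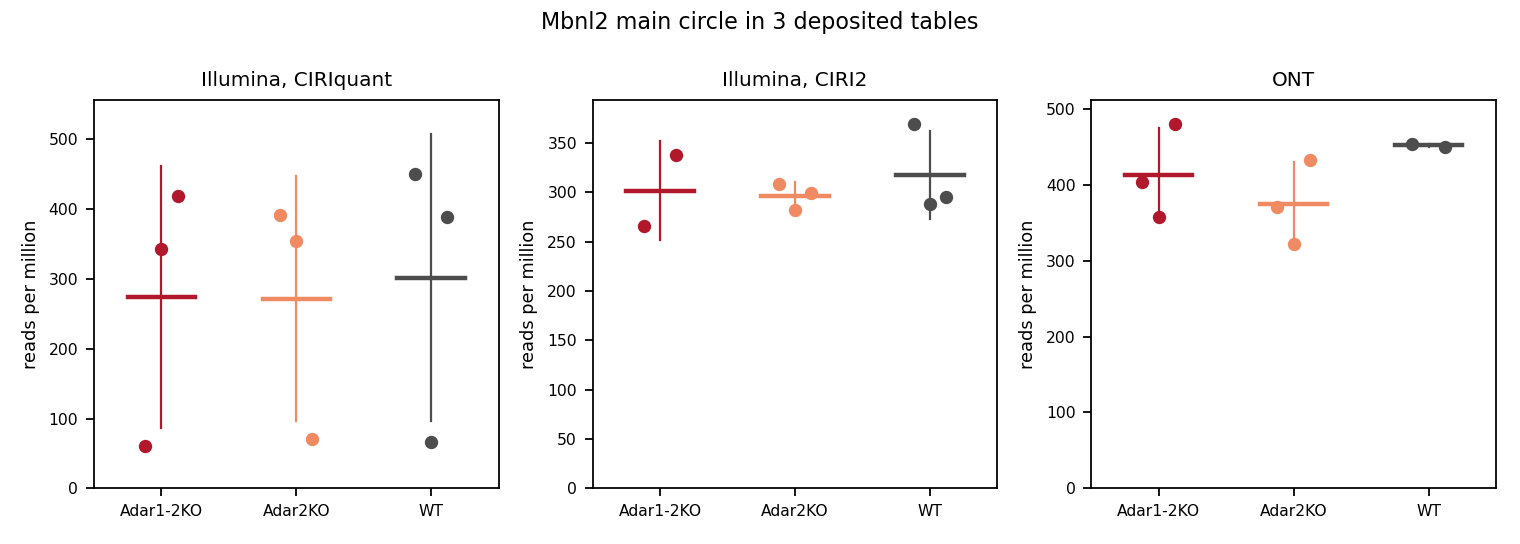
Level of the main Mbnl2 circle, in CPM of each table's own back-splice reads, in the CIRIquant, CIRI2 and ONT tables, 1 point per library, with Adar1-2KO left of Adar2KO and WT. CIRIquant lists 61.4, 70.1 and 66.6 in 1 library of each genotype, whereas CIRI2 lists at least 266.1 in every library it has and ONT at least 321.7.

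Over all main circles, 159 pairs of a circle and a library had at least 50 CIRI2 reads, in 30 genes. The median ratio of CIRIquant to CIRI2 reads was 0.937, and 12 pairs in 6 genes were under 0.5. Of these 12, 6 were Hnrnpll, with ratios of 0.104 to 0.382, and the others were in Mbnl2, Hnrnpu, Qk, Khdrbs1 and Khdrbs2. They included the low values of Mbnl2 in Adar2KO replicate 3 and WT replicate 2, and of Hnrnpu in Adar1-2KO replicate 3.

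Splicing genes outside the 39 were examined in the same fit. Of 159 further genes of the spliceosome, the SR proteins and other RNA-binding regulators, 142 had circles and 117 were tested, and edgeR called none. At an unadjusted p under 0.05 there were 13 for Adar1-2KO against WT, 0 for Adar2KO against WT and 8 for Adar1-2KO against Adar2KO. These are 11.1%, 0% and 6.84% of the 117, against 7.67%, 1.74% and 6.68% of all hosts. The median log2 fold changes were -0.01, -0.06 and 0.08. Rbms1, which encodes an RNA-binding protein of single-stranded sites, had the lowest p, with 2.23 ± 0.50 for Adar1-2KO against WT (edgeR, unadjusted p 0.000723). It had 635, 353 and 1053 reads in Adar1-2KO, 206, 140 and 85 in Adar2KO, and 205, 97 and 25 in WT. ONT reads of Rbms1 were 79, 51 and 151 in Adar1-2KO, 26, 17 and 29 in Adar2KO, and 10 and 13 in WT. DESeq2 called it against WT (adjusted p 0.00299) and against Adar2KO (adjusted p 0.0479). Rbm12 was -1.23 ± 0.33 (unadjusted p 0.0028) and Rbm5, a regulator of apoptotic exons, was 1.01 ± 0.32 (unadjusted p 0.00782) against WT.

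The authors' deposited table for Adar2KO against WT lists 772 circles, all with p up to 0.05, of which 46 had an adjusted p under 0.05 (5.96%). It holds 6 circles of these hosts, and none was called. The lowest adjusted p among them was 0.0913, for a Rbfox3 circle at chr11:118651654-118702242 with a log2 fold change of 3.11 in the authors' deposited table. That circle had 72, 45 and 1 reads in Adar1-2KO, 42, 35 and 80 in Adar2KO, and 8, 2 and 3 in WT. In edgeR it was 3.41 ± 1.32 for Adar2KO against WT (unadjusted p 0.0211). The authors' deposited table for Adar1-2KO against WT lists 160909 circles, 54 of them called (0.0336%), and none of its 923 circles of these hosts was called. Its lowest adjusted p there was 0.0942, for the Celf2 circle at chr2:6608835-6629530. In the Illumina counts used here, that circle was at 0 in all 3 Adar1-2KO libraries. The main circles of Tardbp and U2surp had a mean signal of 0 in the authors' comparison, although Adar1-2KO replicate 3 had 301 and 162 reads of them here. The authors' comparison may therefore rest on other libraries or counts than the fits above, and the 2 are not like for like.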

How the data were processed

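Counts were back-splice and forward-splice reads per circle, which the authors made with BWA 0.7.17 on GRCm39 (per the submitters' processing notes) and CIRIquant 1.1.2 (per the file headers). The deposited CPM column (back-splice reads of both ends scaled to the library's mapped reads) was used only to check the file. The deposited junction ratio is a fraction. The ONT and CIRI2 tables hold counts as deposited. No CIRI2 table of Adar1-2KO replicate 1 and no ONT table of WT replicate 1 was used here. In the CIRIquant tables of Adar1-2KO the values stand 1 column right of their headers and were read there. The authors' deposited comparison tables, made with DESeq2 per the submitters' processing notes, give log2 fold changes, p-values, a mean signal and score columns (standard error, Wald statistic).

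Back-splice reads were summed per host, and a circle naming several genes counted for each. Hosts and circles that reached 5 reads in 3 or more libraries were fitted per platform over all 3 genotypes in edgeR 4.0.16 (R 4.3.3, TMM, quasi-likelihood F test, adjusted p 0.05). Circular shares were tested in limma 3.58.1 as log2 odds with a pseudocount of 0.5. Alternatives were DESeq2 1.42.0, its size factors, other filters, a replicate block and leaving out libraries. The steps were tested on simulated data. Replicates are separate brains, and p-values measure the spread between them after amplification without molecular identifiers, so low counts also carry counting error. No strand setting of the counting is given in the sources used here, so overlapping and antisense genes are uncertain.

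The 39 genes, the lists and the tests were chosen with earlier results of these data known. Libraries were named in full for the 8 hosts with the most reads, their main circles, whatever passed a test and the 3 hosts of lowest p per Illumina comparison. Other named items were chosen after their values were seen. GENCODE M21 is on GRCm38, so it gave exon structure and sequence only, never positions.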

Additional observations from a re-analysis of the deposited data

How the results depend on the processing

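Of 276 recomputed counts of called hosts or circles, 245 stayed within 1.5 times the main count. The main count was 1 for ONT hosts and for ONT circles in Adar1-2KO against Adar2KO, and 0 otherwise. For a main count of 0, staying the same meant staying at 0. Of 426 recomputed single values, 404 kept direction and call, 16 lost a call, 5 gained one and 1 turned: Ddx17 in Adar1-2KO against Adar2KO was -0.03 (log2, p 0.932) within flow cell 1. All 16 lost calls were those of Nova2. With DESeq2, Illumina circle calls were 1 for Adar1-2KO against WT and 1 against Adar2KO, and calls among the other splicing genes were 1 and 1 (Rbms1). Over all features DESeq2 called more too, for example 49 hosts for Adar1-2KO against WT, where edgeR called 10. With no filter on low counts, the same host comparison called 1 (Ddx17, adjusted p 0.0492), and the other splicing genes gave 1 against WT and 1 against Adar2KO (Rbms1). Without that filter, Illumina circle calls were 1 for Adar2KO against WT (Rbfox1 main circle, adjusted p 0.0166), 4 for Adar1-2KO against WT (Ddx17 main circle, the longer Celf2 circle, a Tardbp and an Elavl3 circle) and 2 for Adar1-2KO against Adar2KO (Tardbp and Elavl3). ONT circle calls were then 1 for each mutant against WT (an Elavl3 circle). Leaving out single libraries gave 0 to 3 ONT host calls for Adar1-2KO against Adar2KO, and 0 to 1 ONT circle calls. The 3 came without Adar1-2KO replicate 3 and were Nova2, Rbfox1 (1.01, adjusted p 0.00571) and Tardbp (-2.78, adjusted p 0.0234). Circular share calls were 0 to 1 in both comparisons with WT, the 1 being a Rbfox3 circle without Adar1-2KO replicate 3 (adjusted p 0.0252 for Adar2KO, 0.0298 for Adar1-2KO). With the replicate number as a block, ONT calls for Adar1-2KO against Adar2KO were 0 hosts (adjusted p 0.0727) and 0 circles (0.101), and no other call among these hosts moved. Same-numbered libraries did not deviate together (correlations of -0.054 to 0.034), so the numbers were not taken as pairs. ONT depth of at most 673705 reads and 2 WT libraries limit what the ONT fits can show, and hosts under 100 Illumina reads can show only large differences. Why the settings differ was not tested.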
